A study of Mus musculus with 21 samples.

Results

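Transcripts of matrix metalloproteinases and of their inhibitors were followed in mouse pancreatic ductal adenocarcinoma (PDAC) cell lines that became resistant to the MEK inhibitor trametinib and were then released from the drug. The 10 members were taken from the deposited table by gene symbol: 7 proteinases (Mmp2, Mmp3, Mmp9, Mmp10, Mmp13, Mmp14 and Mmp19) and 3 inhibitors (Timp1, Timp2 and Timp3), of 27 Mmp and Timp symbols and 34478 genes in all. All 10 passed the filter on low values (10 or more normalized counts in 3 or more samples), which left 19300 genes for testing. A normalized count is the estimated number of reads of a gene in a sample, scaled by the authors with DESeq2 so that samples of different depth can be compared.

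The 21 samples came from 6 primary lines, #3, #4, #6, #7, #9 and #10, in which Cre under control of the pancreatic Ptf1a locus (Ptf1awt/Cre) deletes Trp53 (Trp53loxP/loxP). Every group carries these alleles, the untreated one included. The 4 states were Parental (6 samples, never treated), Resistant (6 samples, growing in 100 times their IC50 of trametinib), and drug withdrawal for 5 passages (P5, lines #3, #7 and #9) or 12 passages (P12, 6 samples). For P5 of #7 and #9 another label of the same samples gives 12 drug-free passages; the name P5 is kept here. Each line was sequenced once in each of its states, so the lines are the replicates. P-values of the main test are measured against the spread between lines. Those with the cell line as a block are measured against the spread left once differences between lines are removed. The samples are cultured tumour cells without the stroma of a pancreatic tumour, and in such bulk RNA fewer cells of a type and less RNA per cell cannot be told apart.

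Matrix metalloproteinases are zinc-dependent enzymes that are made as inactive precursors and, once cleaved, cut the proteins of the extracellular matrix. Tissue inhibitors of metalloproteinases, the Timp proteins, bind the active site and block it. In carcinoma cells, the promoters of several secreted proteinases are textbook targets of AP-1, a dimer of Fos and Jun proteins, and of ETS factors, both of which act downstream of the MEK and ERK kinases, where trametinib acts. In this tumour type the family is known for the remodelling of a collagen-rich stroma.

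Estimated depth was 24.1 to 42.7 M reads a sample, at which 3 reads correspond to 2.31 to 4.07 normalized counts; values at or below that are called at the detection limit here, and this limit covers counting error only. In every line the drug went with a low level of the ETS factor Etv4, a gene of MAPK output. It was at 4.58 or less in all 6 Resistant samples and at 1931 or more in the other 15. Resistant #9 stood apart from the other Resistant samples for several proteinases. Resistant #7 had 1659 normalized counts of the AP-1 subunit Fosl1, also a gene of MAPK output, where the other 5 Resistant samples had 2.07 to 47.8. Parental #7 had 1247. Epha2, a further gene of MAPK output, was also higher in Resistant #7 (22345) than in Parental #7 (17853). Labelled as pancreatic cancer lines, the samples carried keratins, although Krt8 was 140 to 546 normalized counts in line #9 and 8832 or more in the others. The epithelial marker Epcam was listed at 0 in 20 of 21 samples. Another, Cdh1, was at 26491 or more in every Parental sample except #9, which had 816, and at 4.01 to 16401 in Resistant samples. The sum of 8 epithelial markers ran from 15953 to 283604 normalized counts in Parental, 1014 to 209985 in Resistant and 489 to 205792 in P12 samples. The sum of 10 fibroblast markers, which are also genes of mesenchymal cells, ran from 127 to 25869, from 1987 to 586467 and from 254 to 179351 in the same states. Line #9 had the lowest epithelial sum in every state, and #7 kept an epithelial sum of at least 205792 throughout. The 9 leukocyte markers in the table summed to 142 to 280.1 in Parental and 211 to 2910.1 in Resistant samples, where #10 had 2530.0 of Csf1r, while Ptprc was between 3.02 and 20.0 in all samples. The 6 endothelial markers summed to 45.1 to 180.5 in Parental, 32.8 to 2757 in Resistant and 84.1 to 249.8 in P12 samples; Tek reached 2512 in Resistant #6, while Emcn was listed at 0 in 18 of 21 samples. The part of these marker differences in the results was not tested.

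3 members, Mmp13, Mmp3 and Mmp10, lie in one cluster on chromosome 9 together with 7 further Mmp genes, and the bases before their transcription starts are shown because they share a feature that the other members with a window lack. Promoter windows of RefSeq (build GRCm38.p6) were found for 7 members, Mmp3, Mmp10, Mmp13, Mmp14, Timp1, Timp2 and Timp3, and not for Mmp2, Mmp9 and Mmp19. Capitals mark the AP-1 motif TGANTCA, which reads the same on both strands, and the ETS core AGGAAG or its reverse complement CTTCCT, and no motif overlaps another. The 190 bases before the start, on the plus strand, were taken from chr9:7445632-7445821 for Mmp3, chr9:7502152-7502341 for Mmp10 and chr9:7272324-7272513 for Mmp13.
Mmp3: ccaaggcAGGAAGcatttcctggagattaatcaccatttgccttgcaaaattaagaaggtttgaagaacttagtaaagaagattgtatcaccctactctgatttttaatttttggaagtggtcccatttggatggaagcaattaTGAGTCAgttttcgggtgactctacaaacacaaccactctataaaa
Mmp10: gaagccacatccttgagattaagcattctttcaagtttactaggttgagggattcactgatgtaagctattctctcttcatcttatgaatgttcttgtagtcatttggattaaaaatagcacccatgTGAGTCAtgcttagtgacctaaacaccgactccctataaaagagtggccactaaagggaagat
Mmp13: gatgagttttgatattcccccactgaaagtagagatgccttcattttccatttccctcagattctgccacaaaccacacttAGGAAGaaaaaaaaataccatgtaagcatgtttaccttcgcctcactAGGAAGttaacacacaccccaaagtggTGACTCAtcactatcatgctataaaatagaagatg
The AP-1 motif began 46 bases before the start of Mmp3, 63 before that of Mmp10 and 35 before that of Mmp13. In the 250 bases before the start, TGANTCA was present in 3 of the 7 members with a window, in 5 of 15 other Mmp and Timp genes and in 6.75% of all 32851 promoter windows. Those 5, Mmp12, Mmp1a, Mmp1b, Mmp20 and Mmp7, also lie in the chromosome 9 cluster. Of them Mmp1a, Mmp1b and Mmp7 reached no more than 13.9 normalized counts in any sample. The ETS core was commoner, in 29.5% of windows, and lay 183 bases before the start of Mmp3 and 109 and 62 bases before that of Mmp13. Mmp14, Timp1 and Timp3 held the ETS core without TGANTCA, and the window of Timp2 held neither.

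Across the comparisons no member passed the thresholds of the main test, limma with Benjamini-Hochberg adjustment at an adjusted p below 0.01 and a log2 difference above 1 or below -1, although several differed by more than 4-fold within single lines. Between Resistant and Parental samples 0 of 10 members were called, where the background was 1023 of 19300 genes, or 5.3%. An unadjusted p under 0.05 was found for 1 member and for 5642 of the 19300 genes. Between P12 and Resistant samples 0 of 10 were called against a background of 2.13%, with 7 members, and 3821 of the 19300 genes, at an unadjusted p under 0.05. Between P12 and Parental samples 0 of 10 were called against 0.114%, with 4 members, and 2953 of the 19300 genes, at an unadjusted p under 0.05. With the cell line as a block, which removes differences between lines, 1 member was called between Resistant and Parental samples (Timp2, background 10.5%), 2 between P12 and Resistant (Mmp10 and Mmp19, background 4.52%) and 0 between P12 and Parental (background 0.523%). The median log2 difference over the members was -0.11 between Resistant and Parental, 1.498 between P12 and Resistant and 1.16 between P12 and Parental samples, where the medians over all genes tested were 0.00, 0.02 and 0.03.

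**Figure D1:**
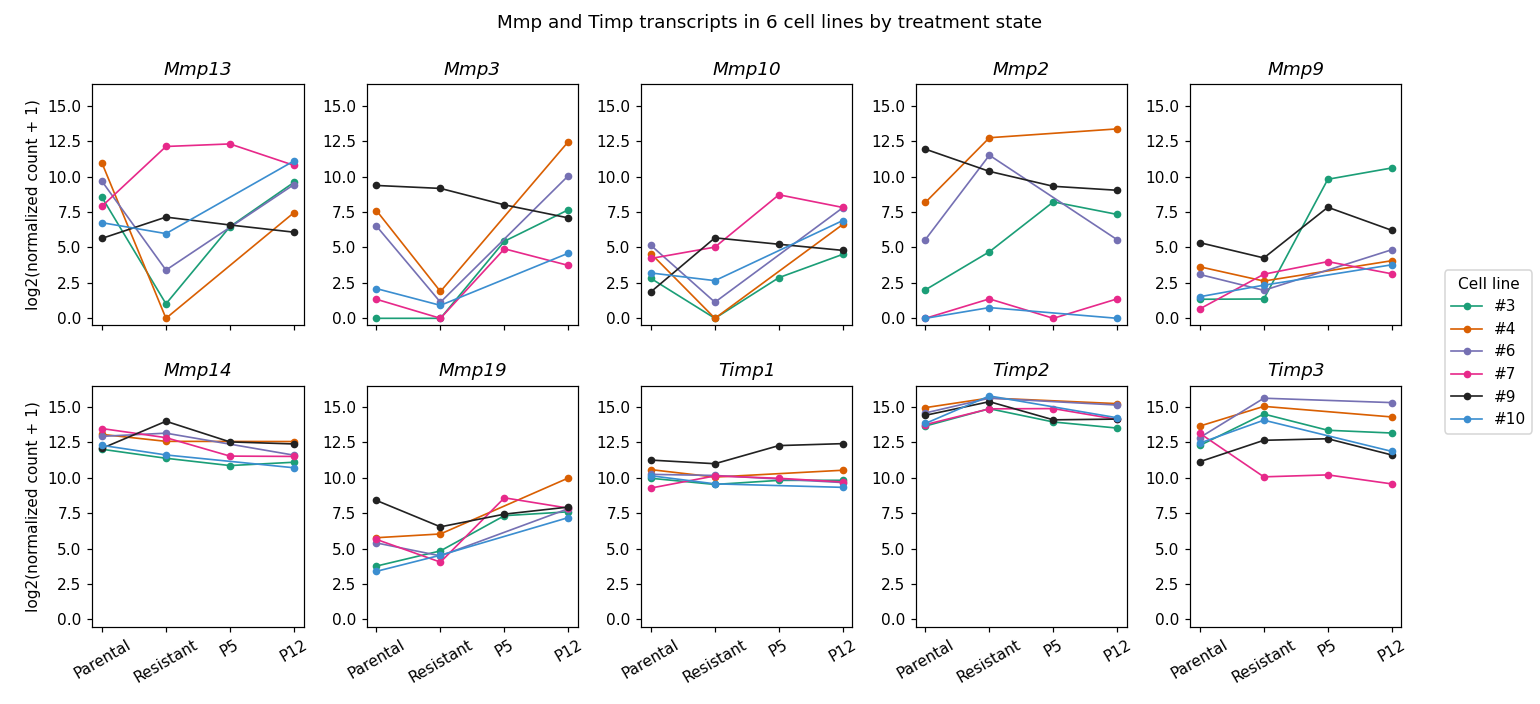
Level of each member, as log2(normalized count + 1), in the 4 states; each point is 1 sample and each coloured line joins the samples of 1 cell line. Mmp19 was higher in P12 than in Resistant in all 6 lines and Timp2 higher in Resistant than in Parental in all 6, while Mmp2 and Timp1 differed between lines by more than they differed between states.

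**Figure D2:**
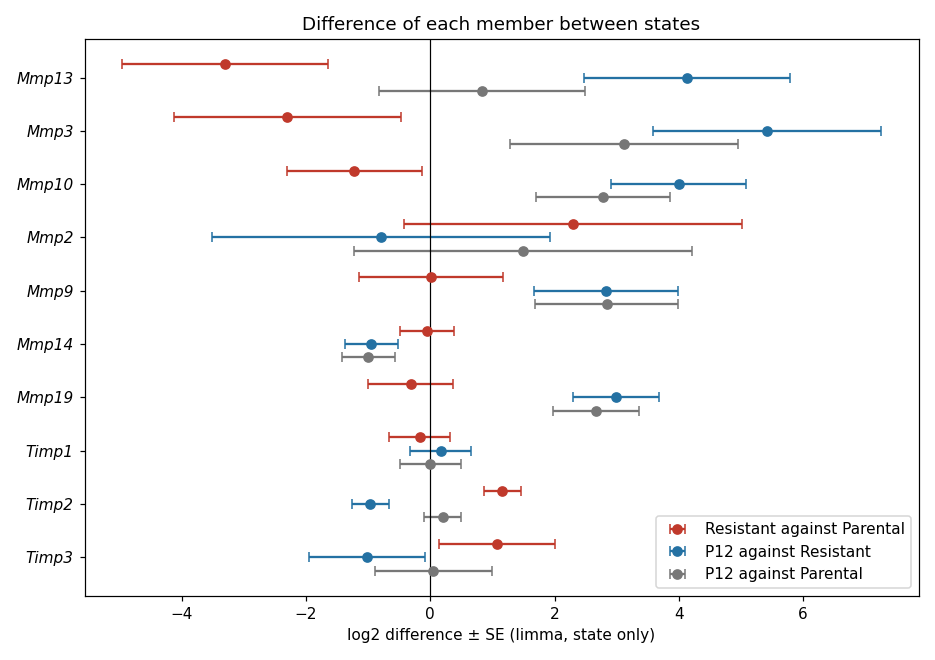
Log2 difference of each member with its standard error, from limma with state as the only term, for Resistant against Parental (red), P12 against Resistant (blue) and P12 against Parental (grey). The proteinases Mmp13, Mmp3, Mmp10, Mmp9 and Mmp19 lie to the right of 0 in P12 against Resistant, and Mmp14, Timp2 and Timp3 lie to the left.

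Mmp13 (chr9:7272514-7283331, plus strand), a collagenase that cleaves fibrillar collagen, was at or near the detection limit in some Resistant lines and abundant in another. It stood at 371, 1982, 813, 239.8, 48.9 and 106 normalized counts in Parental #3, #4, #6, #7, #9 and #10. In the Resistant samples of the same lines it was 1.03, 0, 9.58, 4466, 140.2 and 62.0. In P12 samples it was 771, 174, 692, 1774, 66.5 and 2201, and in P5 samples of #3, #7 and #9 it was 87.5, 5061 and 95.02. Resistant #3 and #4 were thus at the detection limit, Resistant #7 was the highest of its state, and the groups overlapped widely. The log2 difference was -3.30 ± 1.66 (SE, n = 6 and 6) for Resistant against Parental, with adjusted p = 0.193 in limma, and 4.13 ± 1.66 for P12 against Resistant, with adjusted p = 0.159. Within lines, the log2 difference of Resistant against Parental was -10.95 in #4, -7.52 in #3 and -6.27 in #6, and 4.21 in #7. The size rested on single lines: for Resistant against Parental it was -1.77 without line #4 and -4.80 (adjusted p = 0.0276) without #7, and with each line left out in turn neither comparison passed. Over the 21 samples Mmp13 had a Pearson r of 0.74 with Fosl1 and of 0.82 with Mmp10 on log2 values. Fosl1 was picked after the values were seen, as the highest of the 14 factors listed below. For the other AP-1 subunits r ran from -0.61 for Jun to 0.67 for Junb. These are descriptions, since samples of 1 line and 1 state share their source. In #9 Fosl1 was 2374 in Parental and 10.0 in Resistant, where Mmp13 was 48.9 and 140.2. Resistant #7, the Resistant sample with high Fosl1, also had 681 normalized counts of the ERK target Dusp6, against 4.49 to 60.7 in the other 5. Parental #7 had 9449. Dusp4 (333) and Spry2 (400) were also highest in Resistant #7 among the Resistant samples, while Etv4, Etv5 and Spry4 were at 1.28, 5.41 and 7.12 in it. The lowest Dusp6, 4.49, was that of Resistant #9. The part of MAPK output in the level of Mmp13 was not tested.

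**Figure D3:**
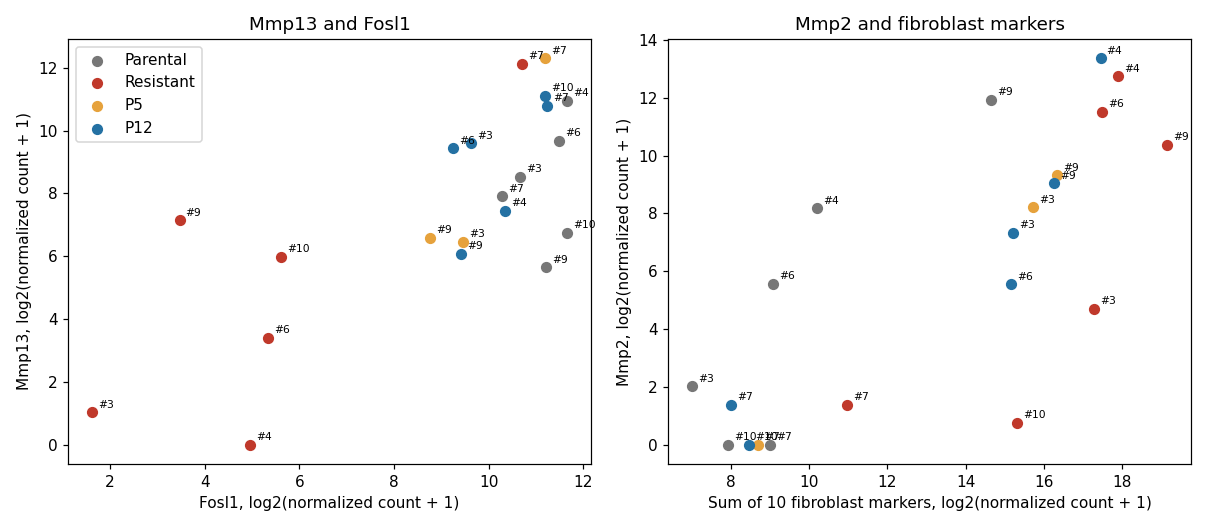
Left, Mmp13 against the AP-1 subunit Fosl1; right, Mmp2 against the summed level of 10 fibroblast markers, both as log2(normalized count + 1), with 1 point per sample labelled by cell line and coloured by state. Resistant #7 lies with the drug-free samples on the left, and on the right all samples of #7 and #10 have under 2 normalized counts of Mmp2.

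Mmp3 (chr9:7445822-7455975, plus strand), a stromelysin that cleaves matrix proteins and other proteinase precursors, was at the detection limit in 5 of 6 Resistant samples and measurable in all 6 P12 samples. Parental samples of #3, #4, #6, #7, #9 and #10 had 0, 193, 89.9, 1.54, 663 and 3.27 normalized counts. Resistant samples had 0, 2.71, 1.20, 0, 574 and 0.885. P12 samples had 201, 5681, 1071, 12.3, 135 and 23.2. Line #9 was the exception, with its highest level before treatment and its lowest after withdrawal, and it made the groups overlap. The log2 difference of P12 against Resistant was 5.42 ± 1.83 with adjusted p = 0.0881, positive in 5 of 6 lines, between 3.68 in #10 and 10.58 in #4, and -2.08 in #9. With the line as a block the adjusted p was 0.0118. With the block and without line #9, a fit added after the data were seen, the difference was 6.92 ± 1.01 and passed at adjusted p = 0.00157. Since the Resistant level was at the detection limit, these sizes depend on the pseudocount. Resistant cells were lower than Parental ones in 5 lines and equal at 0 in #3, with a log2 difference of -2.30 ± 1.83 and adjusted p = 0.439. Of these lines, #7 had both values at the detection limit, and the Parental value of #10 was near it, since 3 reads there were 2.45. In #9 the log2 difference was -0.21, so that only #4 and #6 fell clearly. P5 cells of #3, #7 and #9 had 42.4, 28.9 and 256.

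Mmp10 (chr9:7502352-7510240, plus strand), the second stromelysin, was scarce in most samples and reached its highest levels after withdrawal. Parental samples had 6.03, 22.7, 34.5, 17.7, 2.65 and 8.19 normalized counts in the same line order. Resistant samples had 0, 0, 1.20, 31.6, 50.2 and 5.31. P12 samples had 21.9, 98.0, 223, 225, 26.7 and 119, each above the Parental value of its line in all 6 lines. Over all genes tested 13.4% went the same way in 6 of 6 lines in that comparison. P12 exceeded Resistant in every line but #9, which had 50.2 in Resistant and 26.7 in P12. The log2 difference was 4.00 ± 1.08 (n = 6 and 6) with adjusted p = 0.0309, which missed the threshold. With the line as a block it passed, at adjusted p = 0.00919 and SE 0.90. Against Parental the P12 difference was 2.77 ± 1.08, with adjusted p = 0.224, and 0.0804 with the block. The highest single value was 419.9 in P5 of #7. Mmp3 and Mmp10 are related in sequence, and reads that match both are divided between them by estimation.

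The 10 Mmp genes of the chromosome 9 cluster did not share one pattern. Mmp12, the macrophage metalloelastase, was at 2.25 to 18.8 normalized counts in 20 samples and at 21418 in Resistant #9. Mmp20, an enamel proteinase, was at 111 in Resistant #9 and at 2.13 or less elsewhere. Mmp8, a neutrophil collagenase, reached 18.8 there and 21.7 in P12 #6. Resistant #9 thus showed a different set of the cluster from the other Resistant samples, and Ptprc, the pan-leukocyte marker, stood at 5.56 in it. Outside the cluster the same sample had the highest Mmp11 (6799 against 324 to 2349 elsewhere), Mmp15 (2336) and Mmp14 (16232). These genes were picked after their values were seen.

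**Figure D4:**
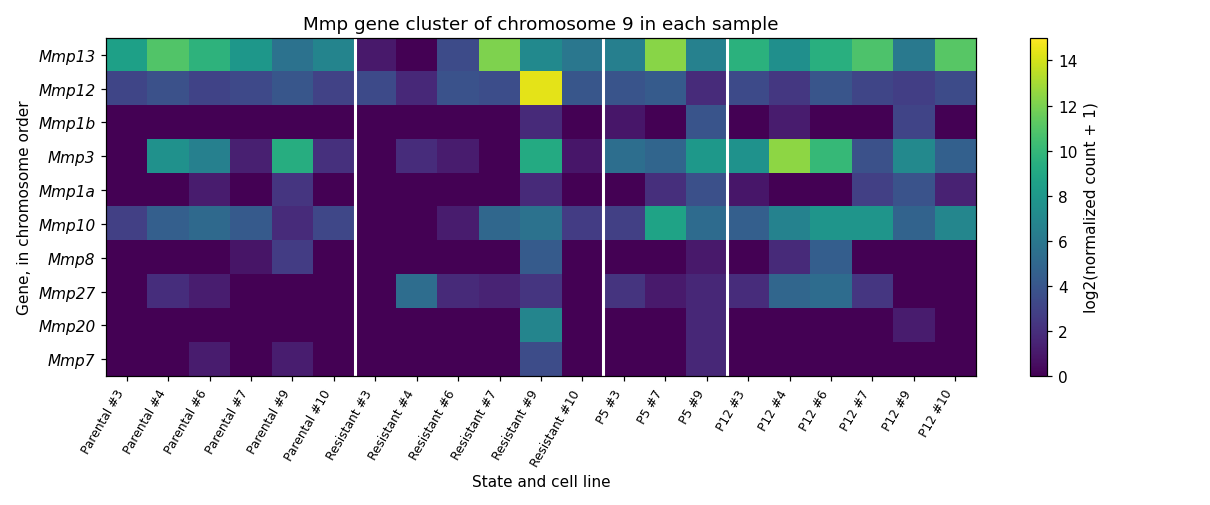
Log2(normalized count + 1) of the 10 Mmp genes on chromosome 9, in chromosome order from top to bottom, in each of the 21 samples, with white lines between the states. Mmp13, Mmp3 and Mmp10 are dark in Resistant #3, #4 and #6, and Mmp12 is bright in Resistant #9 alone.

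The gelatinases Mmp2 and Mmp9, which cleave denatured collagen and the type IV collagen of basement membranes, behaved differently from the cluster and from each other. Mmp2 (chr8:92827291-92853420, plus strand) differed mostly between lines. Parental samples of #3, #4, #6, #7, #9 and #10 had 3.03, 289, 46.1, 0, 3920.1 and 0 normalized counts. Resistant samples had 24.9, 6854, 2914, 1.59, 1321 and 0.690, and P12 samples 159.8, 10564, 45.5, 1.596, 523 and 0. Lines #7 and #10 were at the detection limit in every state, #4 and #6 were higher in Resistant than in Parental by 4.56 and 5.95 on the log2 scale, and the difference in #9 was -1.57. P12 of #6 had the level of its Parental sample, while P12 of #4 was the highest sample of all. The log2 difference of Resistant against Parental was 2.29 ± 2.72 with adjusted p = 0.628, and 0.145 with the block. Differences between lines made up 84.9% of the sum of squares of Mmp2 and differences between the 3 complete states 4.10%. Mmp2 had a Pearson r of 0.77 with the log2 sum of the fibroblast markers over the 21 samples, given as a description; the part of these markers in the level of Mmp2 was not tested.

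Mmp9 (chr2:164940780-164955850, plus strand) was near the detection limit before withdrawal and high in few samples after it. It lay between 0.587 and 39.4 normalized counts in Parental samples, with a median of 4.70, and between 1.57 and 18.2 in Resistant samples, with a median of 4.62. In P12 it was 1562 in #3 and 73.0 in #9, and 7.82 to 27.6 in the other 4 lines. P5 samples had 897 in #3, 15.01 in #7 and 227 in #9, so #3 was the highest at both times. P12 was above Parental in 6 of 6 lines and above Resistant in 5, while in #7 the values of 7.64 in Resistant and 7.82 in P12 differed by less than 1 read. The groups overlapped. The log2 difference was 2.83 ± 1.15 (adjusted p = 0.168) against Resistant and 2.84 ± 1.15 (adjusted p = 0.243) against Parental. Without line #3 these were 1.54 and 1.56. The difference of Resistant against Parental was 0.01 ± 1.15, and its sign changed with the pseudocount and with the scaling. Lcn2, whose product binds Mmp9 protein and protects it from degradation, had 4466 and 4775 normalized counts in P5 and P12 of #9 and 5.39 and 11.3 in those of #3; Lcn2 was picked after its values were seen.

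Mmp14 (chr14:54431612-54445364, plus strand), the membrane-anchored proteinase that activates the Mmp2 precursor in a complex with Timp2, had the highest median of the 7 proteinases per kilobase of exon in each state, although other members exceeded it in single samples. Its median was 1070.0 normalized counts per kilobase in Parental samples, where Mmp13 had 114, Mmp3 25.9, Mmp19 12.8, Mmp10 7.51, Mmp2 7.29 and Mmp9 1.33. Each of these neighbours in the order overlapped with the next over the 6 samples. Parental samples had 4126, 8532, 7762, 11354, 4315 and 4993 normalized counts. Resistant samples had 2656, 6073, 9067, 7276, 16232 and 3123. P12 samples had 2186, 6022, 3091, 2904, 5345 and 1668, lower than Resistant in 6 of 6 lines, with log2 differences from -0.01 in #4 to -1.602 in #9. The groups overlapped in each comparison. The log2 difference of P12 against Resistant was -0.95 ± 0.43 with adjusted p = 0.223, and 0.0519 with the block. Against Parental it was -0.998 ± 0.43 with adjusted p = 0.272. With the block and without line #9, the fit added later, this difference was -1.26 ± 0.22 and passed at adjusted p = 0.0098. In #9 the order was reversed, with 4315 in Parental and 5345 in P12.

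Mmp19 (chr10:128790910-128800824, plus strand), a secreted proteinase that cleaves basement membrane components, was the member whose withdrawal samples separated fully from the Resistant ones. Parental samples of #3, #4, #6, #7, #9 and #10 had 12.6, 53.5, 41.2, 49.1, 336 and 9.53 normalized counts. Resistant samples had 27.6, 64.5, 21.4, 15.5, 91.8 and 22.2. P12 samples had 193, 1012, 225, 230.4, 243 and 145, and P5 samples of #3, #7 and #9 had 159, 383 and 172. No P12 sample overlapped with a Resistant one, a pattern found in 2.45% of the genes tested. The P5 samples also lay above all Resistant samples, for which the share over all genes was not computed. The fitted difference of P12 against Resistant was 7.91-fold, with a log2 difference of 2.98 ± 0.69 (n = 6 and 6), positive in 6 of 6 lines between 1.40 in #9 and 3.95 in #4. The adjusted p was 0.0132 and missed the threshold. It passed with the line as a block (adjusted p = 0.0031, SE 0.56) and without line #9 (3.30 ± 0.61, adjusted p = 0.00463). In 5 of 6 lines P12 was also above Parental, by 2.21 to 4.22 on the log2 scale, and in #9 the difference was -0.47. That difference was 2.67 ± 0.69 with adjusted p = 0.0784, and 0.019 with the block. It passed with the block and without line #9, at 3.29 ± 0.41 and adjusted p = 0.00164. Between Resistant and Parental Mmp19 differed by -0.32 ± 0.69 with adjusted p = 0.807, higher in 3 lines and lower in 3.

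Among the inhibitors Timp2 had the highest median per kilobase of exon in every state, 4658 in Parental and 11876 in Resistant samples, and was higher under the drug in every line. Timp2 (chr11:118301069-118355740, minus strand) inhibits most matrix metalloproteinases and also takes part in Mmp2 activation. Parental samples had 12853, 31592, 24374, 13782, 21719.8 and 14578 normalized counts. Resistant samples had 29972, 50641, 50225, 29780.0, 42316 and 55987. P12 samples had 11612, 38449, 35819, 17754, 18048 and 19208, with a median of 18628 against 18149 in Parental samples. Only Parental #4 lay above the lowest Resistant samples, so that the groups just overlapped. Between Resistant and Parental 5.99% of all genes did not overlap, and no member was among them. Resistant cells were higher in 6 of 6 lines, where 18.5% of the genes tested kept 1 direction, by 0.68 in #4 to 1.94 in #10 on the log2 scale. The fitted difference was 2.23-fold, with a log2 difference of 1.16 ± 0.30 (n = 6 and 6) and adjusted p = 0.0125, and it passed with the line as a block at adjusted p = 0.00054. P12 was lower than Resistant in 6 of 6 lines, with a log2 difference of -0.96 ± 0.30 and adjusted p = 0.0589. With the block that adjusted p was 0.00396, but the difference did not reach the limit of -1. P12 and Parental differed by 0.20 ± 0.30 with adjusted p = 0.78, and the 2 groups overlapped for every member, as for all but 1.52% of the genes tested.

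Timp3 (chr10:86300372-86349506, plus strand), an inhibitor that is bound to the matrix and also acts on ADAM proteinases, was higher in Resistant than in Parental samples in 5 lines and lower in #7. Parental samples of #3, #4, #6, #7, #9 and #10 had 4980.1, 12834, 7318, 8974, 2247 and 5586 normalized counts. Resistant samples had 23094, 33612, 50108, 1069.7, 6395 and 17109.8, and P12 samples 9129, 20029, 40421, 757, 3117 and 3720.5. The log2 difference was between 1.39 and 2.78 in the 5 lines and -3.07 in #7. Line #7 was still low after withdrawal, with 1177 in P5 and 757 in P12. P12 was lower than Resistant in 6 of 6 lines, and 5 members in all, Timp3, Timp2, Mmp14, Mmp9 and Mmp19, kept 1 direction in 6 of 6 lines in that comparison, Mmp9 in #7 by less than 1 read, where 16% of all genes tested did so. The log2 differences were 1.07 ± 0.94 (adjusted p = 0.488) for Resistant against Parental and -1.02 ± 0.94 (adjusted p = 0.608) for P12 against Resistant.

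Timp1 (chrX:20870166-20874735, plus strand), a secreted inhibitor that binds the Mmp9 precursor, differed between lines and hardly between states. It lay between 618 and 2427 normalized counts in Parental, 737 and 2033 in Resistant and 639 and 5431 in P12 samples, with medians of 1167, 1089 and 868. Line #9 was the highest of every state and reached 4936 in P5 and 5431 in P12, where no other sample passed 1478. Differences between lines made up 76.9% of its sum of squares and differences between states 1.12%. The log2 differences were -0.17 ± 0.49 (adjusted p = 0.861) and 0.17 ± 0.49 (adjusted p = 0.899), with 3 lines higher and 3 lower between P12 and Resistant. Timp1 and Timp3 each lie inside a synapsin gene of the opposite strand, and whether the quantification used strand is not given in the sources used here.

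The shares of line and state set the members apart from each other. Over the 18 samples of Parental, Resistant and P12 cells, state made up 55.9% of the sum of squares of Mmp19, 51.4% of Timp2 and 50.8% of Mmp10, where the median over all genes tested was 19.8%. Line made up most of it for Mmp2, Timp1 and Timp3 (61.2%), with a median of 35.8% over all genes. In Mmp13 and Mmp9 the largest part, 51.4% and 43.1%, belonged to neither. The share of the line and the state cannot be set against a repeat of the same line and state, since none was sequenced.

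**Figure D5:**
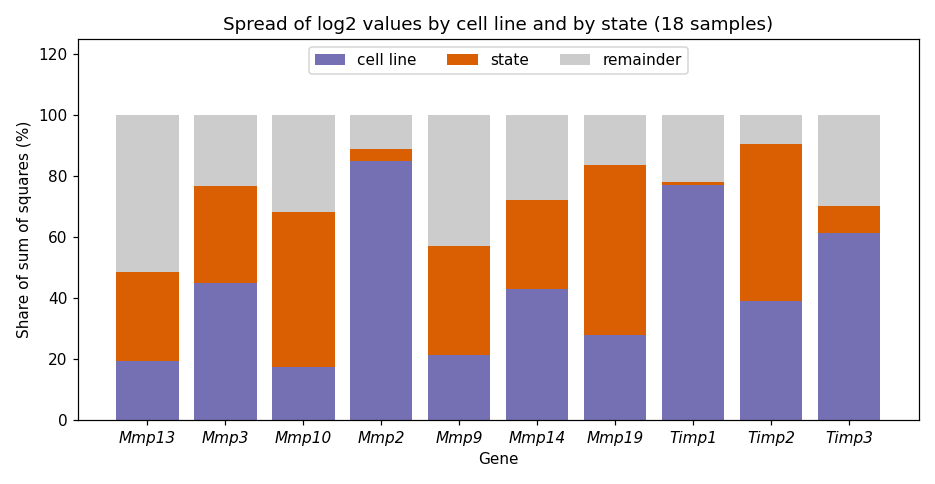
Share of the sum of squares of log2(normalized count + 1) that belongs to differences between the 6 cell lines (purple), between Parental, Resistant and P12 (orange) and to the remainder (grey), for each member over 18 samples. The line takes 84.9% for Mmp2 and 76.9% for Timp1, and the state takes 55.9% for Mmp19.

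Summed per kilobase of exon, the 7 proteinases amounted to 15.6% to 37.9% of the 3 inhibitors in Parental samples, with a median of 20.5%. In Resistant samples the share was 3.22% to 32.3%, with a median of 14.3%, and each of the 6 lines had a lower share than in its Parental state. The summed proteinases themselves were higher in Resistant than in Parental in #4 (3073 against 2398), #6 (2398 against 1704), #7 (2917 against 2020) and #9 (3546 against 2381). They were lower in #3 (462 against 839) and #10 (558 against 887), and the summed inhibitors were higher in Resistant in every line. The lowest shares were those of Resistant #10 and #3 (4.06%). P12 samples had 10.5% to 55.1%, with a median of 22.2%, higher than Resistant in 3 lines and lower in 3. When all 27 Mmp and Timp symbols were summed, the share in #9 was 33.1% in Parental and 70.5% in Resistant, and 5 of 6 lines were lower in Resistant. Mmp14 was the largest of the 7 proteinases per kilobase in 12 of 21 samples, Mmp13 in 4, Mmp2 and Mmp3 in 2 each and Mmp9 in 1. Timp2 was the largest of the inhibitors in 19, and Timp1 in P5 and P12 of #9. RNA amounts say nothing of active enzyme.

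P5 cells were sequenced in 3 lines, and 0 of 10 members were called against Resistant, where the background was 0.378%, against Parental, where it was 0.0259%, and against P12, where it was 0%. At an unadjusted p under 0.05 there were 4, 2 and 0 members, where 2976, 2003 and 130 of the 19300 genes tested were. Mmp19 was already high at P5: it exceeded the Resistant sample of its line by 2.49 in #3, 4.54 in #7 and 0.90 in #9 on the log2 scale, and the difference was 2.70 ± 0.85 with adjusted p = 0.107. Mmp9 exceeded Resistant in 3 of 3 lines, by 0.89 in #7 to 8.45 in #3, with adjusted p = 0.0986. Mmp14 was lower than Resistant in 3 of 3 lines, with log2 differences from -0.52 to -1.46. The share of all genes with 1 direction in 3 of 3 lines was not computed. Between the 3 P5 and the 6 P12 samples, which are not of the same lines throughout, the members differed by a median of -0.27, and with the line as a block by 0.12; without the block 130 of all 19300 genes had an unadjusted p under 0.05 and 0 passed.

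Of the 17 other Mmp and Timp genes, 10 were tested and none was called in any of the 3 complete comparisons, by limma with or without the block. The related ADAM and ADAMTS proteinases, which shed membrane proteins or cut proteoglycans and procollagens, had more members called. Of 26 tested, 6 rose and 1 fell between Resistant and Parental cells, where 5.3% of all genes tested were called. The median log2 difference of the list was 1.35, against 0.00 over all genes. The 6 were Adamts5 (7.20 ± 1.16, adjusted p = 0.000477 by limma), Adamts16 (5.93), Adamts3 (5.16), Adamts1 (4.29), Adamts7 (4.21) and Adamts8 (4.14). Adamts5, an aggrecanase, had 2.46 to 71.3 normalized counts in Parental and 935 to 6665 in Resistant samples, without overlap. Adamts1 had 172 to 1169 and 1725 to 37077 in these states, also without overlap. The gene that fell was Adam9 (-1.50), named after its value was seen. With the line as a block Adamts6 (1.61) was called as well, where the background was 10.5%. Between P12 and Resistant cells Adamts16 (-5.61) and Adamts1 (-4.03) fell and none rose by limma without the block, where the background was 2.13%. With the block Adamts5 (-4.51) and Adamts8 (-3.74) fell too, and Adam9 (1.23) rose, where the background was 4.52%.

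Of 21 genes for activation, docking and clearance of the proteinases, 19 were tested and 1 was called between Resistant and Parental samples, near the background of 5.3% of all genes. This was Furin, the convertase that activates the precursor of Mmp14, which fell by 1.64 ± 0.39 on the log2 scale with adjusted p = 0.00899 by limma. It had 3001 to 9849.7 normalized counts in Parental and 689 to 3970.0 in Resistant samples. Reck, a membrane-bound inhibitor of several proteinases, had 0 to 149 in Parental and 9.61 to 1049 in Resistant samples and was not called.

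Of the 14 AP-1, ETS and RUNX2 factors, 6 fell and 1 rose between Resistant and Parental cells, where 5.3% of all genes tested were called. Etv4 (-10.46), Etv5 (-8.09), Fosl1 (-5.88), Elk3 (-2.95), Fos (-2.44) and Fosb (-1.96) fell, and Fosl2 (1.76), named after its value was seen, rose. Jun and Jund, named after their values were seen, were not called. Jun was higher in Resistant than in Parental samples in every line but #9 (1465 against 3406), and Jund in every line. At the protein level the paper reports more total and phosphorylated JUN in resistant cells. Between P12 and Resistant cells Etv4 (11.35), Etv5 (8.20), Fosl1 (4.90) and Elk3 (2.95) rose and Fosl2 (-2.10) fell, where the background was 2.13%. With the line as a block Junb (-1.69) fell as well in the former comparison, and Etv1 (5.49) and Fosb (1.74) rose in the latter. The backgrounds with the block were 10.5% and 4.52%. The median log2 difference of this list was -2.07 and 1.85 in these comparisons. Of 12 genes of MAPK output, which share Etv4, Etv5 and Fosl1 with the former list, 10 fell and 9 rose in the same comparisons, among them the ERK phosphatases Dusp4 (-7.80 and 8.29) and Dusp6 (-7.31 and 7.37) and the feedback inhibitor Spry4 (-8.27 and 8.64). With the block 12 fell and 11 rose. The 3 members that hold the AP-1 motif shared no single direction between Resistant and Parental samples: Mmp13 and Mmp10 were lower in 4 lines and higher in #7 and #9, and Mmp3 was lower in 5 lines, by as little as -0.21 in #9, and equal in #3. In #7 both Mmp3 values were at the detection limit, and in #10 the Parental value was near it.

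Of the marker lists, the epithelial tight junction genes Cldn4 (-6.46) and Cldn7 (-5.999) were called lower between Resistant and Parental samples by limma, 2 of 7 epithelial markers tested, with the log2 difference in brackets. The background in this comparison was 5.3% of all genes tested, and 10.5% with the block. With the line as a block 5 of the 7 were lower, with Cdh1 (-7.11), Krt18 (-2.76) and Krt8 (-1.81) added. The matrix proteoglycan gene Dcn (11.003), 1 of 9 fibroblast markers tested, and the receptor gene Tek (5.90), 1 of 5 endothelial markers, were called higher, and 0 of 4 leukocyte markers were called with or without the block. The block added the collagen genes Col3a1 (8.01) and Col1a1 (5.19), for 3 fibroblast markers higher. Cldn4 was still lower in P12 than in Parental samples (-5.94), and Tek was lower in P12 than in Resistant samples (-5.84), where the backgrounds were 0.114% and 2.13%. With the block Cldn7 (-4.71) was also lower in P12 than in Parental samples, and against Resistant samples Dcn (-6.26) was lower and Pecam1 (1.39) higher in P12. The backgrounds with the block were 0.523% against Parental and 4.52% against Resistant.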

How the data were processed

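RNA-seq of 21 samples from 6 lines in 4 states was analysed, with groups and lines taken from the sample labels. A part of the genotype shared by all samples is not reported here. Per the labels, libraries were prepared with TruSeq Stranded mRNA from 100 ng RNA, and the notes name CASAVA 2.17, bcl2fastq 2.19, Salmon 0.12, DESeq2 1.18 and build mm10. The authors estimated counts per transcript, summed them per gene and deposited DESeq2-normalized counts, here treated as a signal: of the low values 70.7% to 79.9% fell within 0.1 of a whole multiple of a sample's 1-read step, so whole reads were not recovered and no count test was run. The study names HiSeq and NovaSeq sequencers without assigning samples, so sequencer and state cannot be told apart.

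Values were log2-transformed after adding 1. Genes reaching 10 in 3 or more samples were tested with limma 3.58.1 (R 4.3.3), all 21 samples in one fit with state as the term and a trend, and Benjamini-Hochberg adjustment over 19300 genes; calls needed an adjusted p below 0.01 and a log2 difference above 1 or below -1. On simulated data with 200 changed genes among 19300, the fit called 155 of them and 1 other. Every change had the same size, larger than any member's difference between Resistant and Parental, and noise was drawn independently for each sample. How many smaller changes the fit would call was not tested. Alternatives were pseudocounts of 0.5 and 8, no filter, a mean of at least 100, upper-quartile scaling, the line as replicate block, no trend, the compared states alone, an adjusted p below 0.05 and each line left out; the block without line #9 was added after the data were seen. Same-numbered samples are the same cell line, so the numbers pair the samples: the correlation of their deviations from the state means was -0.06 to 0.81 in 27 same-line pairs, with a median of 0.43, and had a median of -0.10 in 135 pairs of different lines. Blocked values are given beside the members and lists whose calls they change. Gene positions and exon lengths came from GENCODE (build mm10), promoters from RefSeq GRCm38.p6. No protein sequences were used.

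The members and the gene lists were chosen with earlier results of these data known. Named are the 10 members, without the fit of every comparison for each, and, of the other lists, at most 6 called genes by the size of their difference. Most other names are marked where they appear, but some, such as Reck, are not. Left out above for P12 against Parental were the log2 differences of Mmp3 (3.12), Mmp2 (1.49), Mmp13 (0.83) and Timp3 (0.05), none of them called. No member was called in the main test, so no most similar genes were named by that rule. Python 3.11.15, numpy 2.4.6, pandas 2.3.3 and matplotlib 3.10.9 were used.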

Additional observations from a re-analysis of the deposited data

Results flagged for a closer look

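In 30 groups of 6 samples, 1 for each member in each complete state, a sample was set against the others of its group by its gap to the nearest value on the log2 scale. At this limit chance marks about 5% of groups, and 2 were marked. Mmp3 stood at 573.7 normalized counts in Resistant #9, while the other 5 Resistant samples had 2.71 or less. Mmp19 stood at 1012 normalized counts in P12 #4, while the other 5 P12 samples had 145 to 243.

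In 9 of 30 combinations of a member and a comparison, 1 line was higher and another lower by more than 2 on the log2 scale. With 1 sample per line and state, these differences between lines were not tested. Between Resistant and Parental, Mmp10 was at 3.81 in #9 and -4.57 in #4, Mmp13 at 4.21 in #7 and -10.95 in #4, and Timp3 at 2.78 in #6 and -3.07 in #7. Between P12 and Resistant, Mmp2 was at 2.63 in #3 and -5.97 in #6, and Mmp3 at 10.58 in #4 and -2.08 in #9. Between P12 and Parental, Mmp2 was at 5.32 in #3 and -2.90 in #9, and Mmp3 at 7.66 in #3 and -2.29 in #9. In the same comparison Mmp13 was at 4.36 in #10 and -3.50 in #4, and Timp3 at 2.47 in #6 and -3.57 in #7. Lines #7 and #9 were the extremes of the summed epithelial markers in Resistant and P12 samples, at 209985 and 205792 in #7 and at 1014 and 489 in #9; the part of this in the differences was not tested.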

How the results depend on the processing

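For Resistant against Parental the number of genes called was 1023, with 2017 under the replicate block, 1992 under the block without line #9 and 2190 at an adjusted p below 0.05; leaving out 1 line gave 456 to 1239, with 503 without #3, 467 without #4, 456 without #6 and 500 without #10. For P12 against Resistant it was 412, with 872 under the block, 805 under the block without line #9, 947 at an adjusted p below 0.05 and 93 with the compared states alone; leaving out 1 line gave 132 to 459, with 148 without #3, 132 without #4, 198 without #6, 254 without #7 and 161 without #10. For P12 against Parental it was 22, with 101 and 215 under the block with and without line #9, 116 at an adjusted p below 0.05, 12 with the compared states alone and 5 at a mean of at least 100; leaving out 1 line gave 4 to 68, with 4 without #3, 11 without #4, 4 without #6, 14 without #7, 68 without #9 and 12 without #10. For P5 against Resistant it was 73, with 118 and 36 under the block with and without line #9, 376 at an adjusted p below 0.05, 14 with the compared states alone and 23 to 48 with 1 line left out. For P5 against Parental it was 5, with 9 at an adjusted p below 0.05, 3 at a mean of at least 100, 1 with the compared states alone and 1 to 5 with 1 line left out. For P5 against P12 it was 0, and 1 with the compared states alone. Fewer samples enter the fits of the compared states alone and those without a line; the cause of the other shifts was not tested.

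The count of members called was 0 in each comparison. Under the block it was 1 for Resistant against Parental and 2 for P12 against Resistant, with the same counts of 1 and 2 at an adjusted p below 0.05, namely Timp2, and Mmp10 with Mmp19, in both settings. Under the block without line #9 it was 1 (Timp2), 3 (Mmp3, Mmp10, Mmp19) and, for P12 against Parental, 2 (Mmp14, Mmp19). Leaving out 1 line gave 0 to 1 for P12 against Resistant, the 1 being Mmp19 without #9. The block changed no other call of a member. The adjusted p over all alternatives ran from 0.00054 to 0.0708 for Timp2 in Resistant against Parental, from 0.00171 to 0.147 for Mmp10 and from 0.000697 to 0.0615 for Mmp19 in P12 against Resistant.

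Of the members' log2 differences in 4 comparisons, 601 recomputed values kept direction and side of the threshold, 13 newly passed it and 22 changed sign. Mmp9 in Resistant against Parental was -0.13 with a pseudocount of 8 and -0.021 with upper-quartile scaling, and -0.47 to 0.24 with 1 line left out. Under the block without line #9, Timp1 was -0.080 in P12 against Resistant and -0.23 in P12 against Parental, Timp3 -0.034 in P12 against Parental and Mmp2 0.058 in P5 against Resistant. With 1 line left out, Mmp14 in Resistant against Parental ran from -0.44 to 0.074, Mmp2 in P12 against Resistant from -1.49 to 0.23 and in P5 against Resistant from -2.69 to 0.75, Timp1 from -0.080 to 0.30 in P12 against Resistant and from -0.23 to 0.17 in P12 against Parental, and Timp3 in P12 against Parental from -0.43 to 0.77. Upper-quartile scaling moved the median of all genes to 0.11 in P12 against Resistant and 0.13 in P5 against Resistant. Mmp10 was not tested at a mean of at least 100. Values at or below 3 reads, as for Mmp3 in 5 of 6 Resistant samples, limit what a difference can show.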

Other observations

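Levels of some members went together over the 21 samples, which are described here without a test, since samples of 1 line or 1 state share their source and the pairs were looked up after the values were seen. Mmp10 and Mmp13, neighbours on chromosome 9, had a Pearson r of 0.82 on log2 values, and Mmp3 and Mmp19, on different chromosomes, had 0.79. The gene most like Mmp19 was Scn4a (r of 0.94), the one most like Mmp2 was Colec12 (0.93), and the one most like Timp2 was Fbxl6 (0.91), among 19300 genes. Of the factors, Etv1 had r values of 0.81 with Mmp9, 0.68 with Mmp19 and 0.66 with Mmp3. With the other members they ran from -0.44 for Timp2 to 0.47 for Timp1, with 0.04 for Mmp13 and 0.16 for Mmp10. Etv1 itself had 3.30 to 16.1 normalized counts in Resistant samples, 2396 in Parental #9 and 13.1 to 91.8 in the other 5 Parental samples, and 55.0 to 2666 in P12 samples. Parental #9, the Parental sample with the highest Etv1, was also the one with the highest Mmp19 (336), Mmp3 (663), Mmp9 (39.4) and Mmp2 (3920.1). It had the lowest Mmp13 (48.9) and Mmp10 (2.65) of the Parental samples. Resistant #9 had the highest Mmp3 of the Resistant samples, 574, with Etv1 at 7.13. Timp1 had an r of -0.79 with the log2 sum of the epithelial markers.

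Adam19 had 4565 normalized counts in Resistant #9 and 412 or less in the other 20 samples, as a further proteinase that was high in that sample.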
